A study of Homo sapiens with 12 samples.

Results

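The 6 genes that encode the chains of collagen IV, COL4A1 to COL4A6, were read by symbol from the 23284 genes listed for degron (++) and degron (−) cells, and all 6 were listed. In degron (++) cells COL4A3, COL4A4, COL4A5 and COL4A6 had higher levels than in degron (−) cells at every dose and time, COL4A2 had lower levels, and the levels of COL4A1 overlapped. Summed over the 6 genes, degron (++) libraries held 29.2 to 36.7 FPKM (fragments scaled to exon length and to the reads mapped) and degron (−) libraries 3.36 to 6.56 FPKM. COL4A4 is in the list of most upregulated genes that the study took from these samples, so its direction in unirradiated cells is no independent evidence.

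All cells were PANC-1, a human cell line from a pancreatic ductal adenocarcinoma, infected with a retrovirus (pQCXIN-ZsGreen-cODC) and kept under G418. The virus encodes ZsGreen, a green fluorescent protein, fused to the degron of ornithine decarboxylase, so that the protein accumulates where proteasome activity is low. Degron (−) is the infected line as a whole, with few ZsGreen-positive cells, and degron (++) is the most fluorescent part of a line enriched from it by repeated sorting, used as a model of cancer stem-like cells. There were 12 libraries, 2 in each of 6 groups, which were each population at 48 h without gamma irradiation (0 Gy), and at 30 h and 48 h with a dose of 4 Gy. The labels do not give the starting point of the hours, and nothing in them says that the 2 libraries of a group came from separate cultures, so p-values measure only the spread between these libraries. The titles call the 6 libraries of the control arm ZsGreen–, whereas their descriptions read d+, and they were taken as degron (−).

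Collagen IV is the network-forming collagen of basement membranes, the sheets that epithelial cells rest on. Its chains wind into trimers inside the cell. COL4A1 and COL4A2 products form the trimer found in nearly all basement membranes, COL4A3, COL4A4 and COL4A5 products that of the mature kidney glomerulus, and COL4A5 and COL4A6 products contribute to basement membranes of ducts, skin and smooth muscle. The genes lie in head-to-head pairs on chromosomes 13 (COL4A1 and COL4A2), 2 (COL4A3 and COL4A4) and X (COL4A5 and COL4A6), and each pair is transcribed outward from a shared promoter region.

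The line was checked against its markers. KRT8, KRT18, KRT19, KRT7, EPCAM and CDH1, which mark epithelial cells, were all above 1 FPKM in all 12 libraries. They summed to 7184 to 8369 FPKM in degron (++) libraries and to 4226 to 5137 FPKM in degron (−) libraries. PANC-1 is known to have lost CDKN2A, the gene of a cell cycle inhibitor, by deletion. Against this, CDKN2A had 100.4 to 112 FPKM in degron (++) and 11.0 to 21.1 FPKM in degron (−) libraries, so that its values go against the label of the line in all 12 libraries and no collagen IV value could be given without them. Markers of other cells were low or mixed. The 4 endothelial markers summed to 0.278 to 0.556 FPKM in degron (++) and 0.031 to 0.10 FPKM in degron (−). The 6 fibroblast markers, of which COL1A2 and DCN were listed at 0 throughout, summed to 14.5 to 25.4 and 37.2 to 53.9 FPKM. The fibroblast sum in degron (−) was mostly COL1A1, with 36.5 to 52.3 FPKM against 0.531 to 0.826 FPKM in degron (++). LUM went the other way, with 13.8 to 24.7 FPKM in degron (++) and 0.29 to 1.61 FPKM in degron (−), as did COL3A1 at low levels, with a median of 0.126 against 0.0525 FPKM. Of podocyte genes, which bear on COL4A3 and COL4A4, WT1 had 2.56 FPKM in unirradiated degron (++) and 25.4 FPKM in degron (−) cells (log2 fold change -2.89), and PODXL had 24.9 against 12.4 FPKM (0.95). CD14, a monocyte gene, had 1.88 against 0.385 FPKM (1.07). Epithelial and endothelial sums were thus higher in degron (++) and genes of other cell types moved both ways, and their part in the collagen IV values was not tested. In bulk RNA, fewer cells that express a gene and less RNA of it per cell cannot be told apart.

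From the smallest steps in FPKM, each library was estimated to hold 9.57 to 13.0 times 1000000 fragments. At this depth, COL4A5 rested on an estimated 1005 to 1415 fragments in degron (++) and 170 to 340 in degron (−) libraries, and COL4A4 on 839 to 1282 and 25 to 89. COL4A6 rested on 185 to 248 and 22 to 61 fragments, and COL4A3 on 105 to 163 and 1 to 9. COL4A1 had 9 to 20 and 9 to 25, and COL4A2 had 2 to 6 and 17 to 47. The values of COL4A3 in degron (−) and of COL4A2 in degron (++) therefore had the fewest fragments behind them.

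Because the members of a pair share their promoter region, the sequences between the starts were read from the RefSeq promoters of GRCh38.p14, which held all 6 genes. The starts lay 126 bases apart for COL4A1 and COL4A2, 418 for COL4A3 and COL4A4, and 379 for COL4A5 and COL4A6, and COL4A6 had a second start 1036 bases downstream of the other. The stretches below are the upstream bases of COL4A3, COL4A5 and COL4A6, 3 genes with higher levels in degron (++), that no transcript of the pair covers. They are written 5′ to 3′ on the strand of the gene, and capitals mark matches on either strand to GGGCGG (the GC box), CCAAT (the CCAAT box), TATAAA (the TATA box) or TGACTCA (the AP-1 motif). COL4A3 is at chr2:227164489-227164564 on the plus strand, COL4A5 at chrX:108439588-108439837 on the plus strand, and COL4A6 at chrX:108439498-108439708 on the minus strand, where it overlaps the COL4A5 stretch.
COL4A3: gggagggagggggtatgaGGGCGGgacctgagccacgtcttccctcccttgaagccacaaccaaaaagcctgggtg
COL4A5: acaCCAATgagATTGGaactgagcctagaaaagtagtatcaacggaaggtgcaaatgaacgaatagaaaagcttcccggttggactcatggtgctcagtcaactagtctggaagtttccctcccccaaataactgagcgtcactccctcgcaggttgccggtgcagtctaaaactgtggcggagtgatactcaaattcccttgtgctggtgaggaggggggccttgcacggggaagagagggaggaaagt
COL4A6: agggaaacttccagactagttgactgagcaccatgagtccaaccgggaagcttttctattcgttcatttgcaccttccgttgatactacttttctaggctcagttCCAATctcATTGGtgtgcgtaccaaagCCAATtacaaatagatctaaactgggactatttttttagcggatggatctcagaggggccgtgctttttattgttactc
The COL4A3 stretch held 1 GC box, and the COL4A5 and COL4A6 stretches held 2 and 3 CCAAT boxes, of which some are the same bases read from both sides. In the whole promoter windows (the 250 bases before each start), GGGCGG was found for COL4A1, COL4A2, COL4A3 and the downstream start of COL4A6, and in 42.6% of all 35116 promoters. CCAAT was found for COL4A1, COL4A2, COL4A5 and the upstream start of COL4A6, and in 32.01% of all promoters. TATAAA and TGACTCA, found in 10.7% and 4.20% of all promoters, were in none of the collagen IV windows, and COL4A4 held none of the 4 motifs. The pairs differed in base composition, with a GC content of the 250 upstream bases of 77.6% and 78.8% for COL4A1 and COL4A2, 66.4% and 72.8% for COL4A3 and COL4A4, and 51.2% for COL4A5 with 44.0% and 48.8% at the starts of COL4A6. The median over all promoters was 58.0%. The GC-rich windows of COL4A1 and COL4A2 thus belonged to the genes with the lowest FPKM in degron (++). In degron (−) the gene with the lowest FPKM was COL4A3. These matches are a description of letters, not of binding.

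COL4A3 encodes a chain of the glomerular trimer and the antigen of Goodpasture disease. In unirradiated degron (++) cells its level was 1.83 and 1.61 FPKM, at 4 Gy 30 h 1.38 and 1.19 FPKM, and at 4 Gy 48 h 1.37 and 1.82 FPKM. In degron (−) cells it was 0.010 and 0.054 FPKM at 0 Gy, 0.030 and 0.042 FPKM at 4 Gy 30 h, and 0.090 and 0.087 FPKM at 4 Gy 48 h. All degron (++) libraries lay above all degron (−) libraries, as for 25.5% of the genes with a value above 0 in any library, and the 3 degron (++) groups overlapped with their neighbours in order of level.

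COL4A4, the partner of COL4A3 on chromosome 2 and in the glomerular trimer, was the second most abundant chain in degron (++). Its level in degron (++) was 11.6 and 10.5 FPKM at 0 Gy, 8.75 and 8.61 FPKM at 4 Gy 30 h, and 9.54 and 10.7 FPKM at 4 Gy 48 h. In degron (−) it was 0.365 and 0.312 FPKM at 0 Gy, 0.218 and 0.287 FPKM at 4 Gy 30 h, and 0.575 and 0.733 FPKM at 4 Gy 48 h. In degron (++) the groups at 48 h overlapped and the group at 30 h lay below both, while in degron (−) none of the 3 groups overlapped and the level at 4 Gy 48 h was highest. COL4A4 overlaps RHBDD1, a protease gene, in the annotation, and the strand used for counting is not given, so reads of the 2 genes cannot be told apart where they overlap. RHBDD1 had a log2 fold change of -0.09 in unirradiated cells.

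COL4A5, the chain that can enter both kinds of tissue-restricted trimer and the gene most often mutated in Alport syndrome, was the most abundant chain in every library. Its level in degron (++) was 19.8 and 18.4 FPKM at 0 Gy, 16.2 and 16.5 FPKM at 4 Gy 30 h, and 15.7 and 16.8 FPKM at 4 Gy 48 h. In degron (−) it was 3.59 and 3.32 FPKM at 0 Gy, 2.24 and 2.62 FPKM at 4 Gy 30 h, and 3.75 and 4.33 FPKM at 4 Gy 48 h. In degron (++) the unirradiated libraries lay above the irradiated ones, which overlapped with each other. In degron (−) the 3 groups did not overlap, and their order was 4 Gy 48 h, 0 Gy, then 4 Gy 30 h.

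COL4A6, the partner of COL4A5 on chromosome X, had 3.26 and 3.28 FPKM at 0 Gy, 3.29 and 2.65 FPKM at 4 Gy 30 h, and 2.64 and 2.62 FPKM at 4 Gy 48 h in degron (++). In degron (−) it had 0.799 and 0.819 FPKM at 0 Gy, 0.280 and 0.322 FPKM at 4 Gy 30 h, and 0.634 and 0.665 FPKM at 4 Gy 48 h. The populations did not overlap. Within degron (−) the groups did not overlap either, and the lowest was the group at 30 h. For this, as for COL4A4 and COL4A5, the share of all genes whose degron (−) groups separate was not counted. With 2 libraries in each group, such separation is no result about these genes.

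COL4A1 and COL4A2 encode the chains of the common trimer, and both stayed under 1 FPKM in all 12 libraries. COL4A1 had 0.20 and 0.273 FPKM at 0 Gy, 0.183 and 0.173 FPKM at 4 Gy 30 h, and 0.182 and 0.118 FPKM at 4 Gy 48 h in degron (++). In degron (−) it had 0.117 and 0.176, 0.187 and 0.210, and 0.269 and 0.315 FPKM in the same order, so that the populations overlapped. COL4A2 had 0.070 and 0.081 FPKM at 0 Gy, 0.080 and 0.028 FPKM at 4 Gy 30 h, and 0.029 and 0.055 FPKM at 4 Gy 48 h in degron (++). In degron (−) it had 0.462 and 0.240, 0.404 and 0.467, and 0.551 and 0.430 FPKM, and all 6 libraries lay above all those of degron (++), as for 30.1% of the genes with a value above 0 in any library. RefSeq places 4 other genes over COL4A2, among them the antisense genes COL4A2-AS1 and COL4A2-AS2, and without the strand of counting their reads cannot be told apart from those of COL4A2.

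**Figure D1:**
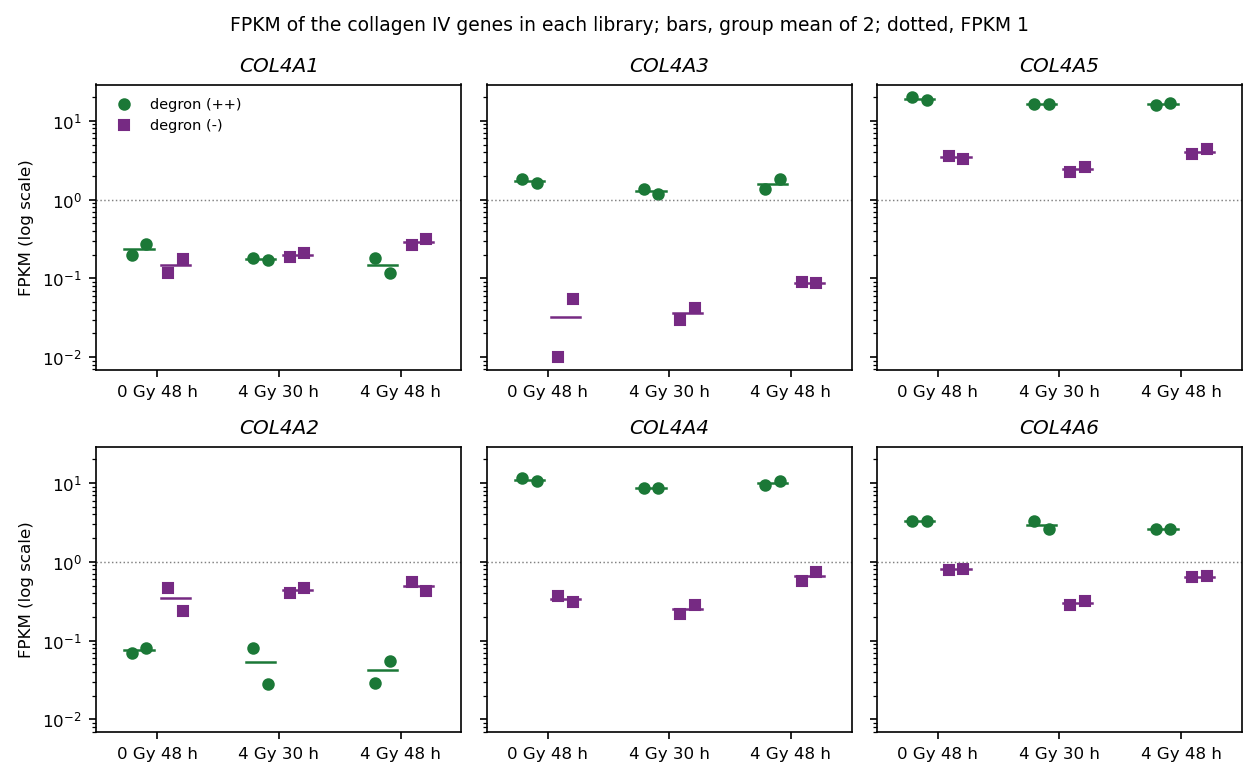
FPKM (log axis) of each collagen IV gene in each library by dose and time, with green circles for degron (++), purple squares for degron (−), bars for the mean of 2 libraries and a dotted line at 1 FPKM. COL4A5 lies highest, at 15.7 to 19.8 FPKM in degron (++) and 2.24 to 4.33 FPKM in degron (−), and COL4A2 is the gene with all degron (−) libraries on top.

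As shares of the summed FPKM, COL4A5 held 52.3% to 56.6% in degron (++) and 63.9% to 67.5% in degron (−). COL4A4 held 29.3% to 33.4% in degron (++) and 6.34% to 11.2% in degron (−), and COL4A3 4.09% to 5.65% and 0.187% to 1.53%. COL4A6 held 8.14% to 11.0% and 8.17% to 16.6%, shares that overlapped. COL4A2 held 0.0960% to 0.268% in degron (++) and 4.88% to 12.02% in degron (−), and COL4A1 0.367% to 0.800% and 2.19% to 5.56%. The chromosome 2 pair thus took a larger part of the collagen IV RNA in degron (++) and the chromosome 13 pair a larger part in degron (−). These shares are parts of 1 sum and move against each other.

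The populations were compared at each dose and time with limma on log2(FPKM + 1), a scale that understates the change of genes with low FPKM, over the 12946 genes with at least 1 FPKM in at least 2 libraries. COL4A5 passed this filter in all 12 libraries. COL4A3, COL4A4 and COL4A6 passed it only through degron (++), so they had to differ between the populations, and COL4A1 and COL4A2 did not pass. All 4 tested genes were higher in degron (++) past an adjusted p of 0.05 at each dose and time, where 37.6% of all tested genes were higher at 0 Gy 48 h, 38.3% at 4 Gy 30 h, and 37.1% at 4 Gy 48 h. With so large a background and this filter, the count of 4 is no result about the collagen IV genes, and the sizes are given instead.

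COL4A5 had a log2 fold change of 2.17 at 0 Gy (standard error 0.0794, adjusted p = 2.03e-08, limma), 2.34 at 4 Gy 30 h (adjusted p = 1.07e-08) and 1.78 at 4 Gy 48 h (adjusted p = 7.81e-08). In ratios of mean FPKM these were 5.52, 6.74 and 4.03. As COL4A3, COL4A4 and COL4A6 passed the filter only through degron (++), no p is given for them here. COL4A4 had 3.17, 2.95 and 2.75 (standard error 0.0841), with ratios of means of 32.6, 34.4 and 15.5. The difference of COL4A4 on both scales was larger than that of COL4A5 at each dose and time, and for both genes it was smallest at 4 Gy 48 h. COL4A6 had 1.24, 1.61 and 1.14 (standard error 0.0849), with ratios of means of 4.04, 9.87 and 4.05. COL4A3 had 1.40, 1.14 and 1.25 (standard error 0.101), with ratios of means of 53.8, 35.8 and 17.99, which rest on 1 to 9 estimated fragments per degron (−) library. At 0 Gy the ratio of COL4A3 was 31.9 without degron (−) replicate 1 and 172 without degron (−) replicate 2. The median over all tested genes was -0.02, -0.02 and -0.01. When each library was rescaled to a sum of 1000000 (TPM), these medians shifted to -0.22, -0.28 and -0.25, and the share of called genes that were higher fell from 48.3%, 48.5% and 48.3% to 35.5%, 32.9% and 31.3%. COL4A5 stayed higher in degron (++) past the threshold under this rescaling. So did COL4A3, COL4A4 and COL4A6, but as these passed the main filter only through degron (++), it is no sign of stability.

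For the chromosome 13 pair, the limma fit was repeated without the filter, over 18487 genes with a value above 0 in any library. COL4A2 was lower in degron (++) by a log2 difference of -0.32 at 0 Gy (adjusted p = 0.00554, limma), -0.45 at 4 Gy 30 h (adjusted p = 0.000905) and -0.52 at 4 Gy 48 h (adjusted p = 0.000418). Of all genes in this fit, 32.1%, 32.8% and 31.9% were lower. COL4A1 had 0.11 (adjusted p = 0.0609, limma), -0.02 (adjusted p = 0.672) and -0.17 (adjusted p = 0.00995), so it was lower in degron (++) past the threshold at 4 Gy 48 h and not at the other 2 conditions. Over all doses and times, the mean log2(FPKM + 1) of COL4A2 was 0.0799 ± 0.0330 in degron (++) and 0.508 ± 0.108 in degron (−) (SD, n = 6), with a difference of -0.43 and a two-sided exact permutation p of 0.00926, the smallest that permuting libraries within dose and time can give. With 0.1 in place of 1 added, the difference was -1.73 (exact permutation p = 0.00926). COL4A1 had a difference of -0.03 (exact permutation p = 0.546). These 2 tests were chosen after the data were seen.

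**Figure D2:**
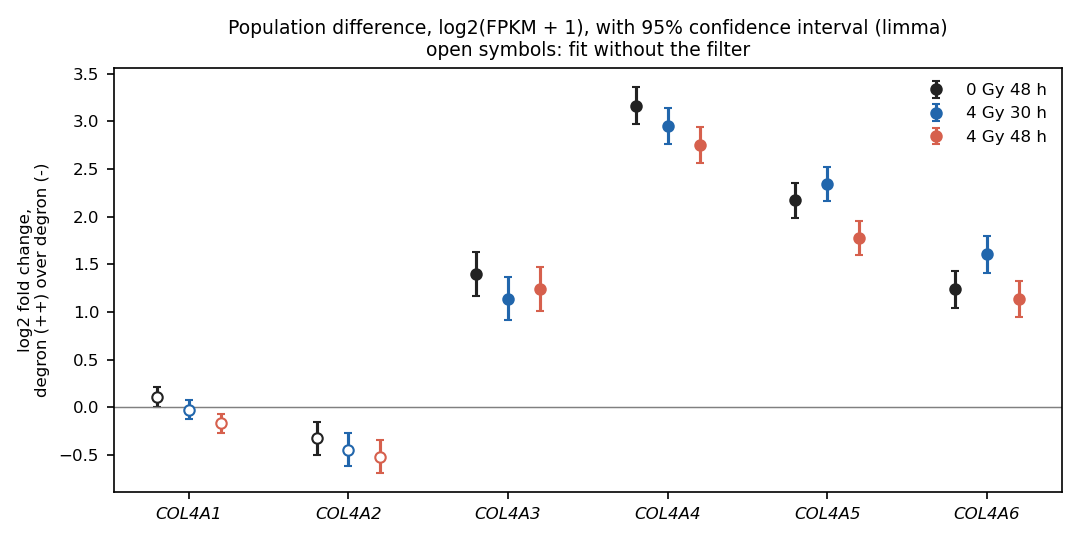
Difference in log2(FPKM + 1) between degron (++) and degron (−) for each collagen IV gene, with 95% confidence intervals from limma, in black at 0 Gy 48 h, blue at 4 Gy 30 h, and red at 4 Gy 48 h. COL4A4 lies highest at 2.75 to 3.17, and the open symbols of COL4A1 and COL4A2 come from the fit without the filter, with COL4A2 at -0.52 to -0.32.

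The pairs were then compared for balance between their members, since FPKM is per exon length. COL4A1 was above COL4A2 in all degron (++) libraries, with ratios of FPKM of 2.15 to 6.28, and below it in all degron (−) libraries, with ratios of 0.253 to 0.733. The mean balance, log2 of the ratio after adding 1 to each FPKM, was 0.17 ± 0.0540 in degron (++) and -0.23 ± 0.115 in degron (−) (SD, n = 6). The difference was 0.40 (two-sided exact permutation p = 0.00926, adjusted over the 3 pairs 0.00926, the smallest this design allows), and 1.63 after adding 0.1 (exact permutation p = 0.00926). With a value added, this balance depends on the levels too, and COL4A2 differed by -0.43 and COL4A1 by -0.03. Its p therefore does not test the ratio and largely repeats the difference of COL4A2. By the ratios of FPKM, the order of the 2 chains of the common trimer was opposite in the 2 populations. The levels were of 2 to 25 estimated fragments in all but the degron (−) libraries of COL4A2.

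COL4A4 was above COL4A3 in all 12 libraries. In degron (++) libraries its ratio to COL4A3 was 5.91 to 7.21 and in degron (−) libraries 5.78 to 36.5, and the highest ratio was that of the library with 0.010 FPKM of COL4A3. The ratios of FPKM overlapped, whereas the balance after adding 1 was -2.11 ± 0.0515 and -0.42 ± 0.163 (SD, n = 6), a difference of -1.69 (exact permutation p = 0.00926, adjusted 0.00926). It was -0.92 after adding 0.1 (exact permutation p = 0.00926), so its size follows the value added. With a value added, the balance depends on the levels of the genes as well as on their ratio. The levels differed between the populations, so these p-values do not test the ratio.

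COL4A5 was above COL4A6 in all 12 libraries, with a ratio of 4.92 to 6.42 in degron (++) and 4.05 to 8.12 in degron (−). These ratios overlapped too. The balance was 2.21 ± 0.110 and 1.44 ± 0.156 (SD, n = 6), a difference of 0.77 (exact permutation p = 0.00926, adjusted 0.00926), but 0.15 after adding 0.1 (exact permutation p = 0.259). This balance also depends on the levels, which differed between the populations, so its p does not test the ratio. In degron (−) the ratio was highest in the libraries at 4 Gy 30 h, in which COL4A6 was lowest.

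**Figure D3:**
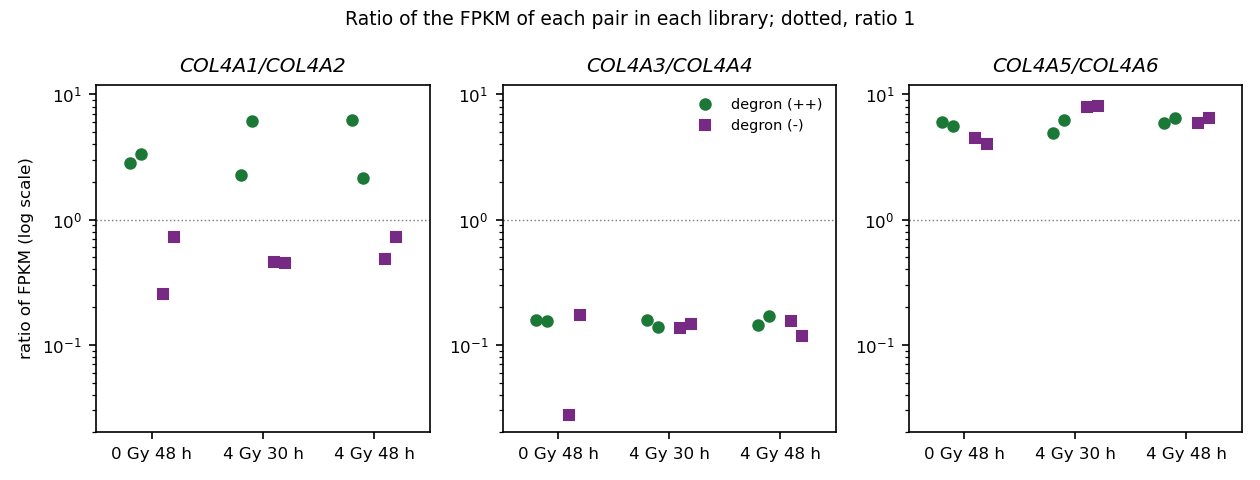
Ratio of FPKM within each head-to-head pair (log axis) in each library by dose and time, with green circles for degron (++), purple squares for degron (−) and a dotted line at a ratio of 1. COL4A1 over COL4A2 separates the populations, at 2.15 to 6.28 against 0.253 to 0.733, while the ratios of the other 2 pairs overlap.

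Levels in degron (−) were also read as percentages of degron (++) at the same dose and time. COL4A3 was at 1.86%, 2.80% and 5.56% at 0 Gy, at 4 Gy 30 h, and at 4 Gy 48 h, and COL4A4 at 3.07%, 2.91% and 6.45%. At 0 Gy the value of COL4A3 rests on each degron (−) library, being 3.14% without replicate 1 and 0.581% without replicate 2. COL4A5 was at 18.1%, 14.8% and 24.8%, and COL4A6 at 24.7%, 10.1% and 24.7%. The percentages of the chromosome 2 pair lay below those of the chromosome X pair at each dose and time. Genes of the 9p21 region, CDKN2A, CDKN2B and MTAP, were at 16.2%, 12.1% and 22.5% at 0 Gy, 11.5%, 9.71% and 17.0% at 4 Gy 30 h, and 18.5%, 16.8% and 28.97% at 4 Gy 48 h. All of these genes but COL4A6 were at their highest percentage at 4 Gy 48 h, and COL4A6 had the same rounded percentage there and at 0 Gy. Whether the levels of CDKN2A, CDKN2B and MTAP have a part in those of collagen IV was not tested.

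**Figure D4:**
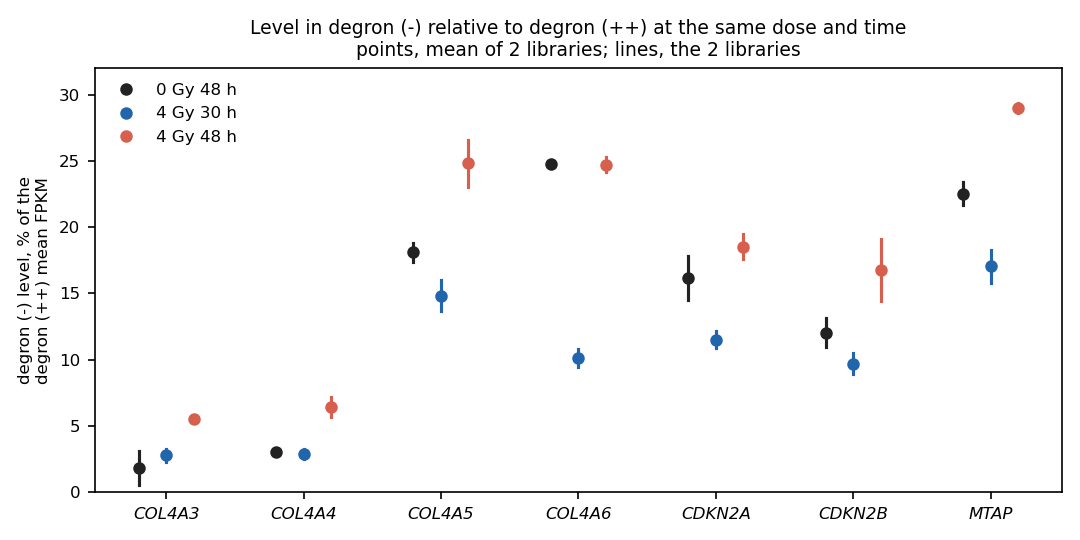
Mean level in degron (−) as a percentage of the mean FPKM in degron (++) at the same dose and time, with lines spanning the 2 degron (−) libraries, for 4 collagen IV genes and 3 genes of 9p21. COL4A3 and COL4A4 lie at 1.86% to 6.45%, and COL4A5, COL4A6, CDKN2A, CDKN2B and MTAP at 9.71% to 28.97%.

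The effect of 4 Gy at 48 h was compared within each population. In degron (++) COL4A3, COL4A4, COL4A5 and COL4A6 had log2 differences of -0.07, -0.11, -0.22 and -0.24 (adjusted p of 0.772, 0.550, 0.204 and 0.197, limma), and 0 of 4 passed the threshold, beside 1.82% of all tested genes. At an unadjusted p under 0.05, COL4A5 and COL4A6 were lower (p of 0.0239 and 0.0223, limma). The 95% interval for COL4A5 was -0.40 to -0.04. In degron (−) the differences were 0.08, 0.30, 0.18 and -0.13 (adjusted p of 0.717, 0.0811, 0.251 and 0.422, limma), and 0 of 4 passed, beside 4.73% of all tested genes. COL4A4 was higher at an unadjusted p under 0.05 (p of 0.00600, limma), with a 95% interval of 0.11 to 0.50, and it passed the threshold with a pseudocount of 0.1 (log2 difference 0.78, adjusted p = 0.0244). The dose effects of the populations did not differ past the threshold for any of the 4 genes, beside 0.0772% of all tested genes, with interaction terms from -0.42 for COL4A4 to -0.10 for COL4A6 (adjusted p of 0.192 to 0.752, limma). The terms of COL4A4 and COL4A5 (-0.39) had unadjusted p of 0.00722 and 0.00715 (limma).

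Between 30 h and 48 h at 4 Gy, 3 of the 4 genes rose in degron (−), beside 6.01% of all tested genes that rose. Of the 6 epithelial markers, 3 rose and 0 fell in the same comparison, with a median of 0.44, and their part in the rise was not tested. COL4A5 rose by 0.56 on the log2 scale (standard error 0.0794, adjusted p = 0.00455, limma), from 2.43 ± 0.264 to 4.04 ± 0.406 FPKM (SD, n = 2). COL4A4 rose by 0.40 (standard error 0.0841, adjusted p = 0.0260, limma), from 0.253 ± 0.0488 to 0.654 ± 0.112 FPKM, and COL4A6 by 0.34 (standard error 0.0849, adjusted p = 0.0461, limma), from 0.301 ± 0.0297 to 0.650 ± 0.0219 FPKM (SD, n = 2). In all 3 genes both libraries at 48 h lay above both at 30 h, which restates the values behind these calls. The share of all genes with this order was not counted. COL4A3 had a difference of 0.07 (adjusted p = 0.729, limma). The call of COL4A6 was lost without any 1 of the 4 libraries compared (adjusted p of 0.118 to 0.211), and that of COL4A4 without either replicate at 30 h or without replicate 2 at 48 h (adjusted p of 0.0707 to 0.175). COL4A5 kept its call without each of the 4 (adjusted p of 0.00741 to 0.0441). After quantile normalization COL4A4 had 0.16 (adjusted p = 0.250, limma) and COL4A6 0.12 (adjusted p = 0.409), and neither was called. None of the 3 was called in a fit of only these 4 libraries (adjusted p of 0.114 to 0.139).

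In degron (++) the same comparison gave 0.18 for COL4A3, 0.20 for COL4A4, -0.01 for COL4A5 and -0.13 for COL4A6 (adjusted p of 0.449, 0.295, 0.995 and 0.531, limma). None of these 4 passed, beside 1.21% of all tested genes, and COL4A4 had an unadjusted p of 0.0423 (limma). The time effect of COL4A5 was smaller in degron (++) than in degron (−) by 0.56 on the log2 scale (interaction -0.56, standard error 0.112, adjusted p = 0.0353, limma), beside 3.23% of all tested genes with an interaction in either direction and 2.72% with a lower effect in degron (++). This call was lost without any of the 4 degron (++) libraries, without degron (−) replicate 1 at 30 h and without degron (−) replicate 2 at 48 h (adjusted p of 0.0775 to 0.119). Of the epithelial markers, 3 of 6 had a lower time effect in degron (++) as well, with a median interaction of -0.45. COL4A6 had an interaction of -0.47 (adjusted p = 0.0811, limma), COL4A4 of -0.20 (adjusted p = 0.428) and COL4A3 of 0.10 (adjusted p = 0.765). No group at 0 Gy 30 h was sequenced, so time and time since irradiation cannot be told apart.

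COL4A1 and COL4A2 had no dose or time difference past the threshold in the fit without the filter, in which 0.92% of genes in degron (++) and 2.78% in degron (−) changed with dose, and 0.584% and 4.23% with time. The closest was COL4A1 between 4 Gy and 0 Gy in degron (−), with a log2 difference of 0.17 (adjusted p = 0.0864, limma) and an unadjusted p of 0.00431.

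Collagen IV chains need modifying enzymes and chaperones in the endoplasmic reticulum, which hydroxylate and glycosylate the chains and help them fold. Of 20 such genes 19 were tested, of which 7 were higher and 10 lower in unirradiated degron (++) cells, with a median log2 fold change of -0.31 beside -0.02 over all tested genes, of which 77.7% changed, 37.6% being higher and 40.2% lower. FKBP10, a prolyl isomerase of the endoplasmic reticulum, had 0.810 ± 0.147 FPKM in degron (++) and 46.8 ± 1.87 FPKM in degron (−) (SD, n = 2), a log2 fold change of -4.73. FKBP10 reached at most 0.991 FPKM in degron (++) and passed the filter only through degron (−), so it had to differ and no p is given. LEPREL2, a prolyl hydroxylase, was listed at 0 in both unirradiated degron (++) libraries and had 9.82 FPKM in degron (−), and P4HA3, a catalytic subunit of prolyl hydroxylase, was listed at 0 beside 1.18 FPKM. LEPREL2 and P4HA3 also passed the filter only through degron (−), so they too had to differ. Higher in degron (++) were LEPREL1, a prolyl hydroxylase, with 53.5 against 33.8 FPKM (log2 fold change 0.64), PLOD3, a lysyl hydroxylase, with 48.6 against 35.6 FPKM (0.44), and GLT25D1, a collagen galactosyltransferase, with 55.2 against 41.8 FPKM (0.39).

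Enzymes that cross-link the deposited network were split as well, with 3 of 7 higher and 3 lower (median log2 fold change -0.03). Of all tested genes 37.6% were higher and 40.2% lower. PXDN, peroxidasin, which makes the sulfilimine bonds of collagen IV, was lower, with 0.295 FPKM in degron (++) and 1.04 FPKM in degron (−) (log2 fold change -0.65). PXDN passed the filter only through degron (−), so it had to differ and no p is given. The lysyl oxidase genes LOXL2 and LOXL1 were lower, with log2 fold changes of -1.64 and -1.25, and LOXL4 and LOX higher, with 1.499 and 0.35. LOX passed the filter only through degron (++). TGM2, a transglutaminase, was higher, with 2670 FPKM against 518 FPKM (2.37).

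Of 27 partners of collagen IV in basement membranes 19 were tested, of which 11 were higher and 7 lower, with a median of 0.76. The shares over all tested genes were 37.6% higher and 40.2% lower. Among those higher were the laminin genes LAMA3 (128 against 24.3 FPKM, log2 fold change 2.35) and LAMB3 (91.4 against 19.9 FPKM, 2.15) and TINAGL1, a basement membrane glycoprotein (87.4 against 13.4 FPKM, 2.62). SPARC, a collagen-binding matrix protein, had 0.0125 FPKM in degron (++) and 105 FPKM in degron (−) (-6.71), FBLN1, fibulin 1, was lower with -3.70, and LAMC3, another laminin gene, was listed at 0 in all degron (++) libraries beside 6.74 FPKM. SPARC and LAMC3 passed the filter only through degron (−), so they had to differ. In degron (−), 9 of these 19 genes rose between 30 h and 48 h at 4 Gy and 0 fell, with a median of 0.29, beside 7.18% of all tested genes that changed.

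Of 14 receptor genes 11 were tested, and 10 were lower in degron (++), beside 40.2% of all tested genes, with a median of -1.004. The collagen receptor gene DDR1 was the 1 that was higher, with 32.5 against 26.9 FPKM (log2 fold change 0.26, adjusted p = 0.000471, limma). ITGB3, CD44 and ITGB5, genes of integrins and of the hyaluronan receptor, were lower by the most, with -1.99, -1.57 and -1.46. ITGB3 passed the filter only through degron (−), so it had to differ.

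Of 10 proteases that can degrade collagen IV 7 were tested, with 4 higher and 3 lower (median 0.62), beside 37.6% and 40.2% of all tested genes. MMP2, the gelatinase whose classical substrate is collagen IV, had 0.0395 FPKM in degron (++) and 59.7 FPKM in degron (−) (log2 fold change -5.87). MMP2 passed the filter only through degron (−), so it had to differ and no p is given. CTSB, cathepsin B, was lower by less (-0.30), and MMP7, matrilysin, was listed at 0 in both unirradiated degron (++) libraries beside 0.597 FPKM in degron (−). MMP12, the macrophage elastase, which the study also took from these samples, was higher with 39.7 against 1.17 FPKM (4.25), MMP14, the membrane-bound activator of MMP2, with 61.5 against 13.1 FPKM (2.15), and CTSS, cathepsin S, with 1.74 against 0.398 FPKM (0.97). MMP7 passed the filter only through degron (−) and CTSS only through degron (++), so the filter favoured their differences.

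Of 12 regulators, all tested, 6 were higher and 5 lower (median 0.15), beside 37.6% and 40.2% of all tested genes. LMX1B, a homeodomain factor known to activate COL4A3 and COL4A4 in podocytes, had 0 to 0.048 FPKM in degron (++) and 1.95 to 2.69 FPKM in degron (−). Its log2 difference was -1.68 in unirradiated cells. All degron (++) libraries lay below all degron (−) libraries, as for 30.1% of the genes with a value above 0 in any library. LMX1B passed the filter only through degron (−), so it had to differ and no p is given. Its part in the levels of COL4A3 and COL4A4 was not tested. TGFB3, a ligand of the TGF-beta pathway that raises matrix genes in many cells, and SMAD3, its transcription factor, were lower with -1.52 and -1.03. TGFB3 also passed the filter only through degron (−), so it had to differ. TGFBR2, a receptor of the pathway, TGFB2, a ligand, and SMAD2, a transcription factor, were higher with 1.16, 0.61 and 0.61. COL4A3BP, whose product transfers ceramide and was named after binding to the COL4A3 product, had 9.32 to 11.1 FPKM in degron (++) and 6.91 to 8.405 FPKM in degron (−).

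The 3 nearest tested genes in RefSeq order on each side of each pair were read as neighbours, 18 in all, of which 10 were higher, 3 lower and 5 not past the threshold in unirradiated degron (++) cells, beside 77.7% of all tested genes that changed and 37.6% that were higher. Around COL4A1 and COL4A2, 5 of 6 were higher, led by RAB20, a trafficking GTPase, with a log2 fold change of 1.74, while COL4A2 was lower. Around COL4A3 and COL4A4, NYAP2 (1.83), MFF (0.40), a mitochondrial fission factor, and IRS1 (0.31), an insulin receptor substrate, were higher. RHBDD1 and AGFG1, with -0.09 and -0.08, and CCL20, with 0.39, were not past the threshold. On the log2(FPKM + 1) scale the pair thus stood above all 6 neighbours but NYAP2, which exceeded COL4A3. In unirradiated cells NYAP2 had 4.42 against 0.528 FPKM and COL4A3 1.72 against 0.032 FPKM, and by the ratio of these means COL4A3 lay higher. Around COL4A5 and COL4A6, MID2, a ubiquitin ligase (-1.33), PSMD10, a chaperone of proteasome assembly (-0.59), and ATG4A, an autophagy protease (-0.44), on the COL4A6 side were lower. On the COL4A5 side TMEM164 (0.52) and ACSL4, an acyl-CoA synthetase (0.41), were higher, and NXT2 (0.05) was not past the threshold. NYAP2 passed the filter only through degron (++) and MID2 only through degron (−), so both had to differ.

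**Figure D5:**
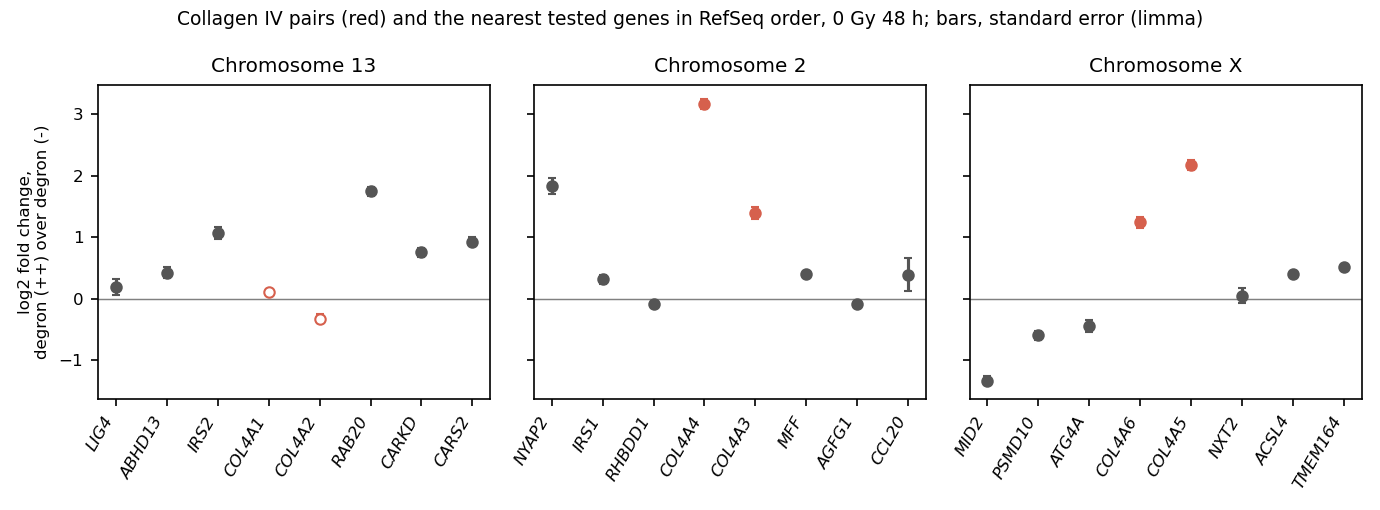
Log2 fold change of degron (++) over degron (−) at 0 Gy 48 h, with standard errors from limma, for each collagen IV pair (red, open where fitted without the filter) and the 3 nearest tested genes on each side (grey). COL4A4 at 3.17 and COL4A5 at 2.17 lie above all their neighbours, and COL4A2 at -0.32 lies below those of chromosome 13, which range from 0.20 to 1.74.

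For each tested collagen IV gene, the genes with the most alike pattern over the 12 libraries were found by the root mean square difference of log2(FPKM + 1) after subtracting each gene's mean. For COL4A3 these were IFI44 (0.0737), CELSR2 (0.0763) and SAMD12 (0.0820), and for COL4A4 CYBRD1 (0.127), PRR15 (0.135) and PSG8 (0.155). For COL4A5 they were RHOBTB2 (0.0639), SHMT1 (0.0681) and CALD1 (0.0721), and for COL4A6 RXRA (0.0846), PLEKHA5 (0.0880) and TRIM14 (0.0924). Partners of a pair were farther from each other on this scale, with 0.854 between COL4A3 and COL4A4 and 0.404 between COL4A5 and COL4A6. COL4A4 held place 8943 for COL4A3 and COL4A3 place 861 for COL4A4, and COL4A6 held place 702 for COL4A5 and COL4A5 place 2185 for COL4A6. The measure is set largely by the difference between the populations on the log2(FPKM + 1) scale, and that of COL4A3, a gene with at most 1.83 FPKM, is compressed.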

How the data were processed

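RNA of 12 libraries was sequenced with a TruSeq stranded mRNA kit. The authors computed FPKM per gene symbol and deposited them for each library, with no counts. The submitters' processing notes name hg19, TopHat2 2.1.1, Bowtie2 2.2.8, SAMtools 0.1.18 and Cuffdiff 2.2.1, and parameters and the strand of counting are not given in the sources used here. Reads shared with overlapping or near-identical genes may be split between them.

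From the deposited FPKM, log2(FPKM + 1) was fitted with limma 3.58.1 (6 group means over 12 libraries, eBayes with trend, R 4.3.3) on 12946 of 23284 genes, with Benjamini-Hochberg adjustment over all tested genes. Balances of pairs were tested with exact permutation tests over libraries (numpy 2.4.6). The fit was tested on simulated data. Depth was estimated from the FPKM steps of genes with 1 transcript of at least 2000 bases in GENCODE 29, where 76.1% to 85.6% of low genes lay within 0.2 of a whole fragment, and it covers counting only. The sum of FPKM was 707273 to 916877, of which MIR622 held 22.5% to 30.0%. Gene order and sequences came from RefSeq GRCh38.p14, of another build than the files, and were joined by symbol. Figures were drawn with matplotlib 3.10.9.

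The collagen IV genes, the lists and the rule for named genes (all 6 chains, up to 3 largest rises and falls of each list, 3 neighbours on each side of a pair, and 3 genes of most alike pattern) were chosen with earlier results of these data known. Alternatives were a pseudocount of 0.1, TPM rescaling, quantile normalization, no filter, a filter at 5 FPKM, eBayes without trend, a replicate block, fits restricted to the libraries compared, and leaving out each library. Some marker genes, and the sums that hold them, are not reported here.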

Additional observations from a re-analysis of the deposited data

Results flagged for a closer look

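The time effect of COL4A5 at 4 Gy differed between the populations by the interaction term itself. From 30 h to 48 h, COL4A5 went from 2.43 ± 0.264 to 4.04 ± 0.406 FPKM in degron (−) and from 16.4 ± 0.232 to 16.3 ± 0.750 FPKM in degron (++) (SD, n = 2). The interaction was -0.56 on the log2(FPKM + 1) scale (adjusted p = 0.0353, limma), and over the alternatives that lost the call the adjusted p was 0.0515 to 0.119.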

How the results depend on the processing

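The 12 population differences of COL4A3, COL4A4, COL4A5 and COL4A6 kept their direction and stayed past the threshold in all 138 alternatives, which says nothing of stability for COL4A3, COL4A4 and COL4A6, since the filter fixed that they differ. The count of 4 higher genes became 2 at each dose and time with a filter at 5 FPKM, since COL4A3 and COL4A6 were then not tested, and without a filter 1, 1 and 2 of COL4A1 and COL4A2 were lower, against 0. The balance of COL4A3 and COL4A4 was -1.81 at 4 Gy 30 h, -1.50 at 4 Gy 48 h and -1.77 at 0 Gy 48 h alone. That of COL4A5 and COL4A6 was 0.64 at 4 Gy 48 h alone, 0.93 at 0 Gy 48 h alone, and 0.15 with a pseudocount of 0.1 (exact permutation p = 0.259).

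The time effect in degron (−) depended on more settings. The count of 3 genes that rose was 1 after quantile normalization, 2 without the filter (COL4A6 adjusted p = 0.0541, limma) and with a filter at 5 FPKM, which left COL4A6 untested, 0 where the fit held only the libraries of the comparison, and 1 to 2 without each library in turn. The count of 1 gene with a smaller time effect in degron (++) became 2 with a pseudocount of 0.1, which added COL4A6, 0 after TPM rescaling, without the filter and with only the libraries of the comparison fitted, and 0 to 1 without each library in turn. Of the dose effects in degron (−), 1 gene, COL4A4, was higher with a pseudocount of 0.1, against 0. The causes were not tested.

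Values that changed sign were under the threshold throughout. They were COL4A3 in the dose effect of degron (++) without irradiated replicate 1 at 48 h (0.0506, lowest value without a library -0.199), in both effects of degron (−) after quantile normalization (-0.0193 for dose and -0.0403 for time), and in the time interaction with a pseudocount of 0.1 (-0.20) and without degron (++) replicate 2 at 48 h (-0.0202, highest value without a library 0.230). COL4A5 turned in the time effect of degron (++) without replicate 2 at 30 h (0.00627) and without replicate 1 at 48 h (0.0369, lowest value without a library -0.0516), COL4A6 in the dose interaction (0.0306) and COL4A4 in the time interaction (0.0196), both after quantile normalization.

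Libraries with the same replicate number did not deviate together, with correlations of -0.0382 to 0.122 over 15 pairs of groups, 2 of them over 0.1. With the replicate number as a block, the time interaction of COL4A5 had an adjusted p of 0.0533, so that 0 genes had a smaller time effect, and the rise of COL4A6 in degron (−) one of 0.0681 (both limma); the block changed no other call.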
